A study of Mus musculus with 16 samples.

Results

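The subunits of the mitochondrial respiratory chain and of the ATP synthase were followed in kidney RNA of 16 mice of 4 genotypes. A gene was taken as a member when its symbol starts with Ndufa, Ndufb, Ndufc, Ndufs or Ndufv and a number, is Sdha, Sdhb, Sdhc or Sdhd, or starts with Uqcr, with Cox and a number from 4 to 8, or with Atp5, and when a probe of it was marked well above background by the scanner software on all 16 arrays. This held for 81 of the 83 matching genes with a named probe, out of 22911 genes with a named probe on the array, of which 16399 had a probe bright enough to be tested. The 81 members were 35 subunits of complex I, 4 of complex II, 8 of complex III, 17 of complex IV and 17 of the ATP synthase, here called complex V. *Ndufa4* and *Ndufa4l2*, named for complex I, were counted with complex IV, where the NDUFA4 protein is found. The testis isoforms *Cox7b2*, above background on 12 arrays, and *Cox8c*, above background on 0, were not members, and *Cox5b*, *Ndufb1*, *Ndufb4b* and *Ndufb4c* had no named probe. Where a gene had several such probes, as 17 members did, the brightest was used.

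Each array held the RNA of the whole kidney of 1 mouse, and there were 4 mice of each genotype, all labelled 6 months old. The WT and the Sting-ko mice are labelled C57BL/6. The Fcgr2b-ko mice, labelled as the lupus mouse, and the mice lacking both genes are labelled 129/C57BL/6. Below they are called WT, Fcgr2b-/-, Sting gt/gt and double-deficient (Fcgr2b-/-.Sting gt/gt). Both alleles are carried by every cell of the animal, not by 1 cell type. *Fcgr2b* encodes the inhibitory Fc receptor, and the gt allele leaves STING, an adaptor of DNA sensing, without function. The labels of the Fcgr2b-/- mice name no *Sting* genotype, whereas the study heads some of its kidney data on lupus mice Sting wt/gt. The introduction of the study describes the *Fcgr2b* deletion as made on the 129 strain and bred onto C57BL/6, and per its methods the WT mice were bought. The *Fcgr2b* genotype and the 129 background cannot be told apart, whereas double-deficient against Fcgr2b-/- mice and Sting gt/gt against WT mice are comparisons within one labelled background. The methods give another source, Aarhus University, for the *Sting*-deficient mice than for the WT mice. Between Sting gt/gt and WT mice the genotype and the source cannot be told apart. The question put to the arrays was what the loss of STING does in this lupus model.

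Complexes I to IV sit in the inner mitochondrial membrane. They pass electrons from NADH and succinate to oxygen, all but complex II pump protons, and the ATP synthase lets the protons flow back to make ATP. Complex II also works in the citric acid cycle. In the kidney the proximal tubule and the thick ascending limb are packed with mitochondria, and salt and solute transport there runs on respiration. All members are encoded in the nucleus, while a core of further subunits is encoded by mitochondrial DNA, and of those genes 0 had a named probe here. Many nuclear subunit genes share binding sites for nuclear respiratory factor 1 (NRF1) and for the ETS factor GABP in their promoters.

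The promoters of 4 members are shown because they stand for what the members do and do not share: *Sdhd* holds the letters of both factors, *Atp5c1* those of NRF1, *Ndufs3* those of the ETS family, and *Cox8b*, a subunit isoform of muscle and brown fat, holds neither. *Atp5c1* and *Ndufs3* are also among the 3 members whose levels followed the other members most closely. Each line is the stretch of 250 bases before the start of the gene from RefSeq, assembly GRCm38.p6, written 5′ to 3′, minus strand in all 4 cases, at chr9:50603850-50604099, chr2:10080433-10080682, chr2:90904722-90904971 and chr7:140900447-140900696 in this order. Capitals mark copies of the letters searched, on either strand, which were GCGCA and GCGC with 1 base of any kind between them for NRF1 and CCGGAAG for the ETS family.
Sdhd: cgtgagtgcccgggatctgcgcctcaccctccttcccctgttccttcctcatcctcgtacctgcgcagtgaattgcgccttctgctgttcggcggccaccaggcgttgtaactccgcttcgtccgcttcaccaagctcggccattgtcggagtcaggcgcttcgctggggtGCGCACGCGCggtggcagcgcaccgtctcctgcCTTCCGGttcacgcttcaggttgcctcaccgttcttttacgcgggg
Atp5c1: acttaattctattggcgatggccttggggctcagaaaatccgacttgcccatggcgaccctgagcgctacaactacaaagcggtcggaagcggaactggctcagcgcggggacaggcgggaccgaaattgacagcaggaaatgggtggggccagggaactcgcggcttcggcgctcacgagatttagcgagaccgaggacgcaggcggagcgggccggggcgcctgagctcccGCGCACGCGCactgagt
Ndufs3: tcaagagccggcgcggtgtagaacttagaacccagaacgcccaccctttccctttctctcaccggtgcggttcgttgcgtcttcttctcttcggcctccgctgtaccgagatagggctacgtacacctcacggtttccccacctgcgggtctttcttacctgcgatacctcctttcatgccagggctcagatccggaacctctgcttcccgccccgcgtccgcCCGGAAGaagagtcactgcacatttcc
Cox8b: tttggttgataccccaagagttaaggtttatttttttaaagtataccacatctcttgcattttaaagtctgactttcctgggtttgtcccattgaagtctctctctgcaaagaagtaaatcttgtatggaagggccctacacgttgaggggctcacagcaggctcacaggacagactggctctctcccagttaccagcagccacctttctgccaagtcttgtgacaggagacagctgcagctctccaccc
The NRF1 letters lie 79 bases before the start of *Sdhd* and 17 bases before that of *Atp5c1*. The ETS letters lie 46 bases before the start of *Sdhd*, without overlap with the NRF1 letters, and 27 bases before that of *Ndufs3*.

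A promoter was found for 66 of the 81 members, as windows from 250 bases before to 50 bases after a start. The NRF1 letters were in 17 of them (25.8%), against 5.19% of the 27025 genes with such a window, and the ETS letters were in 17 (25.8%), against 9.93%. Either motif was in 30 members (45.5%, against 14% of all genes), and both were in 4 members, *Sdhd*, *Cox6a1*, *Atp5h* and *Atp5k* (6.06%, against 1.12%). Complex V held either motif in 10 of 15 members and complex IV in 3 of 12. The genes compared were all those with a window, not only those above background as the members were, so these shares are of unlike sets. A match of letters is a description and not a bound site. The members with either motif and the 36 with neither had similar medians in what follows, with no test made. Their median log2 changes were -0.39 and -0.41 between Fcgr2b-/- and WT mice, -0.33 and -0.36 between Sting gt/gt and WT mice, and 0.21 and 0.25 between double-deficient and Fcgr2b-/- mice. Among those without a promoter in the table used were *Ndufa2*, *Ndufb9*, *Ndufs1*, *Sdhc*, *Uqcrb*, *Uqcrc2*, *Uqcrq*, *Cox4i1*, *Cox4i2*, *Cox6a2*, *Cox6c*, *Ndufa4l2*, *Atp5a1* and *Atp5mpl*.

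Across the series, 28441 to 35564 probes were above background on an array and 0 spots were saturated. The probe of *Fcgr2b* was at 1.14 to 2.13 in WT, 0.02 to 0.70 in Fcgr2b-/- and -0.40 to 0.50 in double-deficient mice, so all 8 mice labelled deficient lay below all 4 WT mice, and at -0.19 to 1.54 in Sting gt/gt mice, which overlapped with both. The probe of *Sting1* did not separate the *Sting* genotypes (-1.35 to 1.03 in WT and -0.10 to 1.01 in Sting gt/gt mice), and where it lies against the allele was not checked. All 15 proximal tubule genes of the marker list and all 14 of the thick limb, distal tubule and collecting duct list were above background on all 16 arrays. A level is the log2 processed signal of a probe after the 75th percentile of its array was subtracted, and levels of different probes are not compared. Signal of Y-linked genes was high on 6 arrays, 2 of WT, 1 of Fcgr2b-/-, 2 of double-deficient and 1 of Sting gt/gt mice. By this signal the sexes were mixed within every genotype but not in equal shares, with fewer such mice in Fcgr2b-/- and Sting gt/gt. The medians with this signal as a covariate are given at the end.

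In no comparison of the genotypes was a member called. A call was an adjusted p under 0.05 in limma over 35627 tested probes and at least a 2-fold change. The members nevertheless lay mostly on one side of 0. Against WT mice, 78 of 81 were lower in the Fcgr2b-/- mice, with a median log2 change of -0.41, and 77 of 81 in the Sting gt/gt mice, with a median of -0.34. In the double-deficient mice 76 of 81 were higher than in the Fcgr2b-/- mice, with a median of 0.21, while 77 of 81 were lower than in WT mice, with a median of -0.18. That last count was far less one-sided within each slide of arrays, as given below. Members varied together from mouse to mouse, so such a count is largely that of a shared shift and not of 81 separate results. In whole kidney, fewer cells of a type and less RNA per cell cannot be told apart.

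Per mouse, the mean log2 level of the 81 members minus its WT mean was -0.10, 0.14, 0.15 and -0.18 in WT replicates 1 to 4 and -1.07, 0.42, -0.32 and -0.55 in Fcgr2b-/- replicates 1 to 4. It was -0.05, -0.06, -0.31 and -0.24 in the double-deficient mice. The Sting gt/gt mice were at -0.34, -0.31, -0.20 and -0.43. The Fcgr2b-/- mice thus held both the lowest and the highest of the 16 kidneys, whereas all 4 Sting gt/gt mice lay below all 4 WT mice. Fcgr2b-/- replicate 1 had the lowest level of all 16 mice for 55 of the 81 members, and Fcgr2b-/- replicate 2 had the highest for 38. The SD between mice of one genotype was 0.17 in WT, 0.61 in Fcgr2b-/-, 0.13 in double-deficient and 0.10 in Sting gt/gt mice (n = 4 each).

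**Figure D1:**
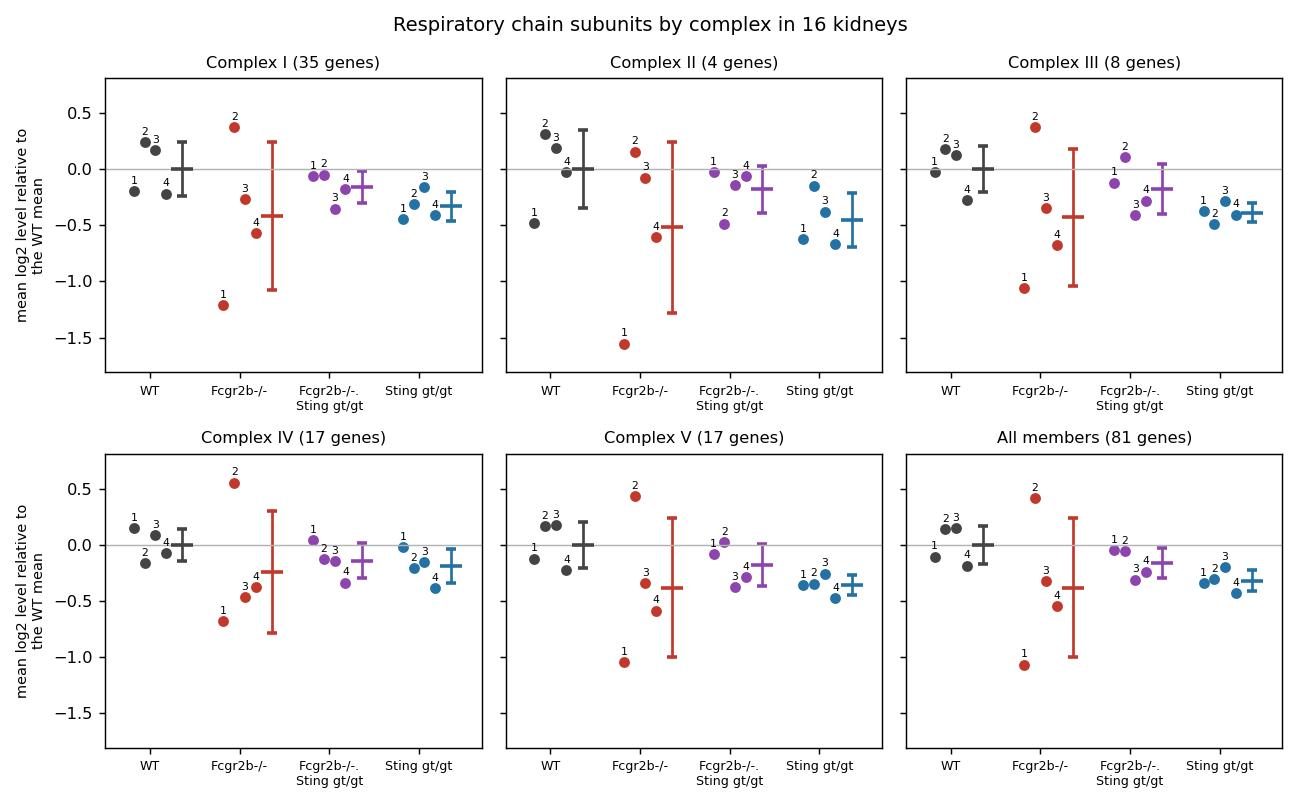
Mean log2 level of the subunit genes of each complex in each of 16 mice, relative to the WT mean (vertical axes); points are mice with their replicate number, grouped by genotype. Fcgr2b-/- replicate 1 is lowest in every complex, from -1.55 in complex II to -0.68 in complex IV, and all 4 Sting gt/gt mice lie at or below -0.26 in complex V.

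The first comparison asks what the lupus genotype does to these genes. Between Fcgr2b-/- and WT mice, the median log2 change was -0.41 in complex I (35 of 35 lower), -0.52 in complex II (4 of 4), -0.43 in complex III (8 of 8), -0.36 in complex IV (14 of 17) and -0.38 in complex V (17 of 17). The median of all tested probes was -0.06, with 56.6% of them lower. Over the probes above background on all 16 arrays, as the members were, it was -0.10 with 35.8% higher. Limma called 0.0505% of the probes and 0 of the members, whose smallest adjusted p was 0.9996. At an unadjusted p under 0.05 there was 1 member, *Ndufa4l2*, which was higher, where 3.35% of all tested probes passed. The count was 0 without Fcgr2b-/- replicate 1 and 3 without double-deficient replicate 2. No member had all 4 Fcgr2b-/- mice on one side of all 4 WT mice, as 0.620% of the probes had higher and 0.618% had lower. The shift rested in large part on 1 mouse. Without Fcgr2b-/- replicate 1 the median was -0.17 with 63 of 81 members lower, and without replicate 2 it was -0.68. It also depended on the scaling. After quantile normalization the median over the members was -0.19 and in the authors' table of log2 values -0.18, with 6 members higher in each and complex I at -0.20 in both, against -0.07 over all tested probes in both.

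The second comparison asks whether the loss of STING alters them in the lupus mice. Between double-deficient and Fcgr2b-/- mice, the median log2 change was 0.25 in complex I, 0.36 in complex II, 0.20 in complex III, 0.19 in complex IV and 0.20 in complex V, against 0.06 over all tested probes, of which 57.5% were higher. Over the probes above background on all 16 arrays the median was 0.07 with 60.5% higher. The 5 members that were lower all belong to complex IV. Limma called 0 of the members and 0 of all probes (0%), and 0 members passed an unadjusted p of 0.05 where 1.81% of the probes did. The groups of no member were apart, against 0.741% of probes higher and 0.281% lower. The median was 0.13 after quantile normalization and in the authors' table. Without Fcgr2b-/- replicate 1 it was 0.02, with 41 members higher and 40 lower, and without Fcgr2b-/- replicate 2 it was 0.47, so that most of the difference rested on which Fcgr2b-/- mice were compared. The largest change was that of *Cox8b*, at -0.81 (SE 1.45), and the largest increase that of *Cox6a2*, at 0.71 (SE 0.58).

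Between Sting gt/gt and WT mice, the comparison without lupus, the median log2 change was -0.31 in complex I (35 of 35 lower), -0.44 in complex II (4 of 4), -0.37 in complex III (8 of 8), -0.31 in complex IV (14 of 17) and -0.37 in complex V (16 of 17). Over all tested probes the median was 0.00 and 49.9% were lower. Over the probes above background on all 16 arrays, as the members were, it was -0.08 with 42.9% higher. Limma again called 0 of the members and 0% of the probes. At an unadjusted p under 0.05 there were 4 members, *Sdhd*, *Uqcrfs1* and *Cox7c* lower and *Ndufa4l2* higher, where 3.76% of the probes passed, and all 4 had an adjusted p of 0.732. Their number was 1 without Sting gt/gt replicate 4, and 9 without Fcgr2b-/- replicate 1, which enters only through the shared estimate of the spread. In 9 members all 4 Sting gt/gt mice lay below all 4 WT mice, which held for 1.45% of the tested probes, and in 0 they lay above, which held for 0.587%. These were *Ndufa9* and *Ndufb5* of complex I, *Sdhd*, *Uqcrc2* and *Uqcrfs1* of complexes II and III, *Cox6b1* of complex IV, and *Atp5c1*, *Atp5g2* and *Atp5pb* of complex V. The two-tailed Mann-Whitney test, the test that the methods of the study name, can give no exact p below 0.0286 with 4 mice against 4, and its adjusted p for these members was 0.755. The median did not rest on 1 mouse, running from -0.43 to -0.29 as each of the 16 arrays was left out, but it depended on the scaling of the arrays. After quantile normalization it was -0.12 with 62 of 81 members lower, against -0.03 over all tested probes, and in the authors' table -0.13 with 63 lower.

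Between double-deficient and WT mice the median was -0.18, with 77 members lower where 49.4% of the probes were, and the complexes lay between -0.17 (I and II) and -0.19 (IV). Over the probes above background on all 16 arrays the median was -0.02 with 44.3% higher. Limma called 0 members and 0% of the probes, and 0 members passed an unadjusted p of 0.05 where 0.424% of the probes did. The groups of no member were apart, against 0.317% of probes higher and 0.230% lower. After quantile normalization the median was -0.04 with 66 members lower. Between double-deficient and Sting gt/gt mice the median was 0.15, with 65 members higher where 51.0% of the probes were, and limma called 0 members and 0% of the probes. This median depended on the scaling, at 0.07 with 53 members higher after quantile normalization, 0.08 with 52 in the authors' table and 0.28 with 74 after scaling by the median, where all tested probes were at 0.14. In the main scaling the probes above background on all 16 arrays had a median of 0.06 with 55.5% higher. Here *Uqcrfs1* and *Cox6a2* had all double-deficient mice above all Sting gt/gt mice, as 1.43% of the probes had, while 0 members and 0.702% of the probes were apart the other way. *Ndufa4l2* was lower at an unadjusted p under 0.05, where 3.05% of the probes passed (log2 change -0.70, SE 0.31, unadjusted p = 0.0385, adjusted p = 0.885 in limma), a count of 1 that became 4 without Fcgr2b-/- replicate 1 and 0 without Sting gt/gt replicate 4 or double-deficient replicate 2.

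The interaction asks whether the loss of STING shifted the members differently with and without *Fcgr2b*. It was above 0 for 76 of 81 members, with a median of 0.57, against 0.03 and 52.0% above 0 over all tested probes. Over the probes above background on all 16 arrays its median was 0.14, with 58.8% above 0. Limma called 0 members and 0% of the probes, with a smallest adjusted p of 0.661. At an unadjusted p under 0.05 it gave 10 members, where 6.27% of the probes passed. Of these 9 were above 0, *Ndufb3*, *Ndufs1*, *Sdha*, *Sdhd*, *Uqcrc2*, *Uqcrfs1*, *Cox6b1*, *Cox7c* and *Atp5pb*, between 0.90 (*Ndufb3*) and 1.27 (*Cox6b1*), and *Ndufa4l2* was below, at -1.40 (SE 0.44). These counts were fragile. Without Fcgr2b-/- replicate 1 the median was 0.33 and the 10 members became 2, and they became 6 without WT replicate 1, 4 without double-deficient replicate 2 and 3 without Sting gt/gt replicate 4. After quantile normalization the median was 0.26, against 0.07 over all tested probes, and the members 3.

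**Figure D2:**
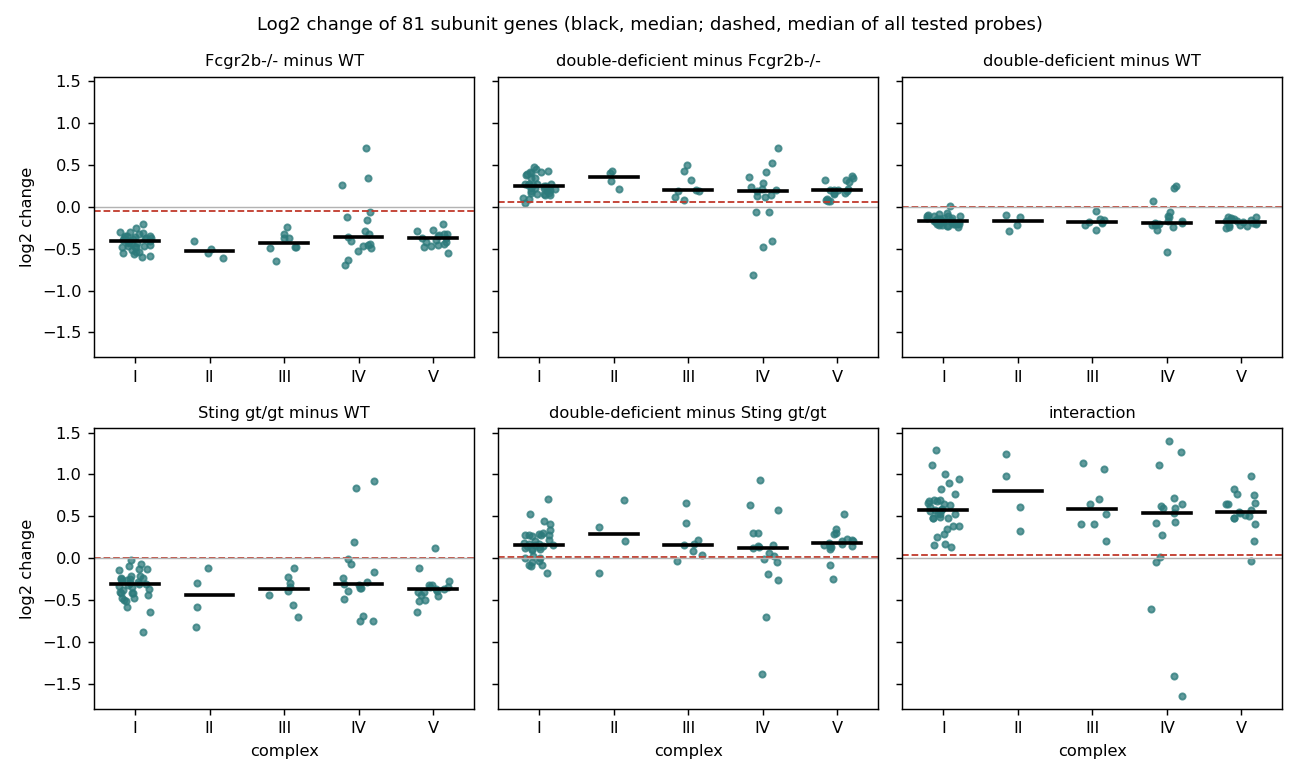
Log2 change of each of the 81 subunit genes (points, vertical axes) by complex (horizontal axes), with one panel per comparison; the black bar is the median of the complex and the dashed line the median of all tested probes. In the panel of Sting gt/gt against WT the complex medians lie between -0.44 and -0.31 while the dashed line lies at 0.00. The median of the probes above background on all 16 arrays, not drawn, was -0.08 there.

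Complex I takes electrons from NADH. *Ndufs1*, an iron-sulfur subunit of the module that oxidizes NADH, was at 6.72, 6.36, 5.96 and 6.01 in WT replicates 1 to 4 and at 5.12, 6.25, 5.95 and 5.39 in the Fcgr2b-/- mice. It was at 6.10, 6.64, 5.84 and 6.04 in the double-deficient and at 6.05, 5.94, 5.56 and 4.95 in Sting gt/gt animals. The 4 groups overlapped, with Fcgr2b-/- replicate 1 and Sting gt/gt replicates 3 and 4 among the lowest. The log2 change was 0.47 (SE 0.32) between double-deficient and Fcgr2b-/- mice and -0.64 (SE 0.32) between Sting gt/gt and WT mice, neither past limma's threshold (smallest adjusted p = 0.732), and the interaction was 1.11 (SE 0.45).

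*Ndufs3*, a core subunit of the arm that reaches into the matrix, was chosen after its values were seen, as were *Ndufa8*, *Uqcrc1*, *Atp5c1* and the members named for groups that were apart. *Ndufs3* was at 6.68 to 7.07 in WT, 5.79, 7.09, 6.62 and 6.11 in Fcgr2b-/-, 6.60 to 6.76 in double-deficient and 6.44 to 6.69 in Sting gt/gt mice. The spread of the Fcgr2b-/- mice (SD 0.57) was far above that of the double-deficient mice (SD 0.07) and the Sting gt/gt mice (SD 0.10, n = 4 each), and was not tested. The log2 change between Fcgr2b-/- and WT mice was -0.48 (SE 0.25, unadjusted p = 0.0766 in limma). *Ndufa8*, a subunit of the membrane arm, was at 2.55, 4.83, 4.86 and 4.55 in WT mice and at 4.52, 2.78, 4.40 and 4.64 in double-deficient mice, so that 1 mouse of each genotype lay far below the other 3. *Ndufa2*, a small accessory subunit, was highest in these same mice, WT replicate 1 and double-deficient replicate 2, at 8.19 and 8.16, against 6.73 to 7.67 in the other 14.

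Complex II is made of the flavoprotein *Sdha*, the iron-sulfur protein *Sdhb* and the membrane anchors *Sdhc* and *Sdhd*. *Sdhd* was at 6.99, 6.71, 6.46 and 6.43 in WT mice and at 6.23, 6.27, 5.87 and 4.94 in Sting gt/gt mice, where the highest mouse lay below the lowest WT mouse. It was at 5.43, 6.66, 6.35 and 5.95 in Fcgr2b-/- and at 6.52, 7.02, 6.26 and 6.30 in double-deficient mice. The Fcgr2b-/- mice overlapped with all other groups. The log2 change between Sting gt/gt and WT mice was -0.82 (SE 0.33, unadjusted p = 0.0262, adjusted p = 0.732 in limma), and -0.52 without Sting gt/gt replicate 4.

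*Sdha* was at 5.65, 6.32, 6.19 and 6.11 in WT, 4.58, 5.92, 5.99 and 5.31 in Fcgr2b-/-, 5.91, 5.53, 6.01 and 5.97 in double-deficient and 5.41, 5.91, 5.45 and 5.17 in Sting gt/gt mice. Its log2 change was -0.62 (SE 0.30) between Fcgr2b-/- and WT mice and -0.58 (SE 0.30) between Sting gt/gt and WT mice, both with overlapping groups and neither past the threshold in limma. The log2 change of *Sdhb* was -0.41 and -0.30 (SE 0.41) in these comparisons. By the other probe of each gene, it was -0.55 and -0.89 for *Sdhb* and -0.74 and -0.88 for *Sdha*. *Sdhc* was at 3.96, 5.66, 5.54 and 5.22 in WT and 5.11, 3.77, 5.11 and 5.25 in double-deficient mice. *Sdhc* and *Sdhd*, which pair in the membrane, thus parted in WT replicate 1 and double-deficient replicate 2, where *Sdhc* was lowest and *Sdhd* highest of the group. *Sdhc* lies 4 protein-coding genes from *Fcgr2b* on the same chromosome, where a deletion made on the 129 strain can carry a stretch of 129 chromosome along, whose part here was not tested.

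Complex III passes electrons to cytochrome c, and *Uqcrfs1*, the Rieske iron-sulfur protein, hands them on towards it. It was at 6.30, 6.80, 6.56 and 6.41 in WT, 5.01, 6.73, 6.51 and 5.89 in Fcgr2b-/-, 6.49, 6.40, 6.41 and 6.55 in double-deficient and 5.93, 6.25, 5.85 and 5.20 in Sting gt/gt mice. All Sting gt/gt mice lay below all WT mice and below all double-deficient mice, and the double-deficient mice were the most alike (SD 0.07, n = 4). The log2 change was -0.71 (SE 0.33, unadjusted p = 0.0482, adjusted p = 0.732) between Sting gt/gt and WT mice and 0.66 (SE 0.33, unadjusted p = 0.0640, adjusted p = 0.885) between double-deficient and Sting gt/gt mice in limma.

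*Uqcrc2*, a core protein of complex III, was at 6.69 to 7.31 in WT, 5.68, 7.10, 6.58 and 6.07 in Fcgr2b-/-, 6.57 to 7.44 in double-deficient and 6.23 to 6.68 in Sting gt/gt mice. The highest Sting gt/gt mouse was just below the lowest WT mouse. Its change was -0.64 (SE 0.30) between Fcgr2b-/- and WT mice, with an unadjusted p of 0.0502 in limma. The log2 change of its partner core protein *Uqcrc1* was -0.24 in that comparison and -0.12 between Sting gt/gt and WT mice (SE 0.51). *Uqcrb*, which binds near the ubiquinone site, had the largest change of complex III between double-deficient and WT mice, -0.28 (SE 0.33), and was -0.06 without WT replicate 1.

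Complex IV reduces oxygen, and it is the complex whose members varied least together. Its regulatory subunits exist as isoforms. *Cox7a2* was at 7.48 to 8.68 in WT, 7.20 to 8.35 in Fcgr2b-/-, 7.29 to 8.72 in double-deficient and 7.18 to 8.18 in Sting gt/gt mice, with log2 changes from WT of -0.45 in Fcgr2b-/- and -0.39 in Sting gt/gt mice (SE 0.37). *Cox7a2l*, which takes part in supercomplexes of complexes III and IV, had changes of -0.06 and -0.08 in the same order (SE 0.22), and *Cox4i1*, the common isoform of subunit 4, of -0.15 and -0.0149 (SE 0.52). The changes were -0.29 and -0.16 (SE 0.37) for *Cox6a1*, -0.41 and -0.32 (SE 0.32) for *Cox8a*, -0.49 and -0.36 (SE 0.37) for *Cox7b* and -0.46 and -0.36 (SE 0.37) for *Ndufa4*. None of these passed the threshold in limma.

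*Cox6b1*, a subunit on the cytochrome c side, was at 4.55 to 5.07 in WT (4.90 ± 0.24, SD, n = 4) and at 4.13, 4.51, 4.36 and 3.61 in Sting gt/gt mice, which lay just below. It was at 3.06, 5.22, 4.46 and 4.34 in Fcgr2b-/- and 4.75, 5.32, 4.51 and 4.59 in double-deficient mice. The change between Sting gt/gt and WT mice was -0.75 (SE 0.37, adjusted p = 0.732 in limma). The testis isoform *Cox6b2* was at -0.33 to 0.76 in WT and -0.39 to 1.29 in Fcgr2b-/- mice, with a change of 0.34 (SE 0.38). *Cox7c*, a small membrane subunit, was at 6.97, 6.48, 6.53 and 6.13 in WT and 6.25, 6.08, 5.77 and 5.02 in Sting gt/gt mice. These groups overlapped by 1 mouse, and the change was -0.75 (SE 0.34, unadjusted p = 0.0462, adjusted p = 0.732 in limma). It was -0.49 without Sting gt/gt replicate 4, and -0.51 by the other probe of the gene. *Cox4i1*, the common isoform of subunit 4, was at 6.24 in WT replicate 1 and at 8.04 to 8.39 in the other 3 WT mice. The lung isoform *Cox4i2* was at 0.12 to 0.67 in WT and -0.06 to 0.45 in Sting gt/gt mice and differed by less than its spread (change -0.23, SE 0.25).

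*Ndufa4l2*, a paralog of *Ndufa4* that is induced by hypoxia, ran against the other members. It was at -0.22, -0.81, -0.92 and -0.14 in WT and at 0.54, -0.35, -0.08 and 0.59 in Fcgr2b-/- mice. Values of 1.12, -0.15, 0.21 and 0.41 were found in Sting gt/gt mice, 3 of them above every WT mouse, and the double-deficient mice were at -0.39, -0.41, 0.04 and -0.45. The log2 change from WT was 0.70 (SE 0.31, unadjusted p = 0.0393) in Fcgr2b-/-, 0.92 (SE 0.31, unadjusted p = 0.00928) in Sting gt/gt and 0.22 (SE 0.31) in double-deficient mice, and the interaction was -1.40 (SE 0.44, unadjusted p = 0.00592, adjusted p = 0.661 in limma). None passed the adjustment over all probes. Its change in Sting gt/gt mice ran from 0.68 to 1.11 as each array was left out, so that 1 library did not set its direction.

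*Cox8b*, the muscle and brown fat isoform of subunit 8, was the most scattered member. It was at 4.64, -3.30, -0.54 and 1.26 in WT, 2.90, 1.81, -2.23 and 0.65 in Fcgr2b-/-, 1.81, -2.22, 1.26 and -0.96 in double-deficient and 3.11, 0.95, 1.13 and 0.21 in Sting gt/gt mice. The mice of 1 genotype thus differed by far more than the genotypes, whose changes were -0.54 to 0.84 from WT with an SE of 1.45. Brown fat expresses *Cox8b*, and the mean log2 level of the brown fat genes *Ucp1* and *Cidea* against the WT mean was 5.89 in WT replicate 1, 3.18 in Fcgr2b-/- replicate 1 and 2.99 in Sting gt/gt replicate 1, the mice with the highest *Cox8b*, and -2.32 in WT replicate 2, the mouse with the lowest. The order was not shared by all mice. The brown fat level was -2.27 in WT replicate 4 and 2.96 in double-deficient replicate 3, where *Cox8b* was at 1.26 in both, and 0.17 in Fcgr2b-/- replicate 2, where *Cox8b* was at 1.81. *Ucp1* was above background on 13 arrays, and the part of fat in the *Cox8b* values was not tested. *Cox6a2*, the heart and muscle isoform of subunit 6a, was at -2.17 and 1.67 in Fcgr2b-/- replicates 1 and 2 and at -1.63 in Sting gt/gt replicate 1. Its other 13 values lay between -0.66 and 0.47, and all double-deficient mice, at 0.28 to 0.47, lay above all Sting gt/gt mice. *Cox7a1*, the other heart and muscle isoform, was at 4.02 to 4.69 in WT and 2.39 to 4.87 in Fcgr2b-/- mice (change -0.69, SE 0.40).

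Complex V makes the ATP. *Atp5c1*, the gamma subunit that turns inside the catalytic head, was at 7.82, 8.17, 8.14 and 7.82 in WT, 6.62, 8.36, 7.71 and 7.34 in Fcgr2b-/-, 7.94, 8.05, 7.60 and 7.72 in double-deficient and 7.43, 7.65, 7.48 and 7.36 in Sting gt/gt mice. The Sting gt/gt mice all lay below the WT mice and the Fcgr2b-/- mice on both sides of them. The change was -0.51 (SE 0.30, unadjusted p = 0.105, adjusted p = 0.732 in limma). *Atp5pb*, of the peripheral stalk, was at 6.84 to 7.36 in WT and at 6.82, 6.76, 6.47 and 5.79 in Sting gt/gt mice, just apart, with a change of -0.64 (SE 0.31, adjusted p = 0.732 in limma), or -0.42 without Sting gt/gt replicate 4.

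*Atp5g1*, 1 of the genes of the ring subunit c, had the largest change of complex V between Fcgr2b-/- and WT mice, -0.55 (SE 0.43). It was at 5.84 in Fcgr2b-/- replicate 1 and 7.41 to 8.44 in the other 3, against 7.15 to 8.34 in WT mice, and without that mouse the change was -0.06. *Atp5md*, a small membrane subunit, had the largest change of the complex between double-deficient and WT mice, -0.26 (SE 0.41), which was 0.0233 without WT replicate 1. In the 17 members with several probes, the probes of a gene could be set against each other. Between Fcgr2b-/- and WT and between Sting gt/gt and WT mice all probes of a gene had the same sign in 17 of 17 genes. The median gap between the probes of a gene was 0.07 and 0.29, and the largest 0.26 and 0.66. Between Sting gt/gt and WT mice the probes of *Atp5a1* gave -0.32 and -0.98. Against the mean of the 16 mice, Sting gt/gt replicate 4 was at 0.16 and -1.76 by the probes of *Sdhb*. By those of *Atp5pb* it was at -1.01 and -1.19. The probe used had the smallest SD over the 16 mice in 15 of the 17 genes.

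The mice differed in more than the shared shift. In WT replicate 1 and double-deficient replicate 2 the members split both ways. Against the mean of the 16 mice, 28 members were over 0.5 above it in both mice, among them *Ndufa2*, *Ndufs4*, *Sdhd*, *Uqcrb*, *Cox7c*, *Ndufa4* and *Atp5pb*, and 11 were over 0.5 below it in both, *Ndufa8*, *Ndufa10*, *Ndufb10*, *Ndufs7*, *Ndufv1*, *Sdhc*, *Uqcrc1*, *Cox4i1*, *Cox5a*, *Cox6b2* and *Atp5g3*. Only *Cox8b* was over 0.5 off in opposite directions in this pair. The share of all probes off in the same direction in both mice is not given here, so these counts do not set the members apart. The SD over the 81 members was 0.77 and 0.68 in this pair, 0.63 in Fcgr2b-/- replicate 1 and 0.19 to 0.54 in the other 13. Over all probes above background on all 16 arrays it was 0.73 and 0.64 in the pair and 0.94 in Fcgr2b-/- replicate 1. In the other 13 arrays it was 0.32 to 0.88, so a wide spread was not particular to the members. Both mice of the pair had high Y-linked signal, as 4 of the other 14 mice had. They also had the highest leukocyte signal of their genotypes (1.27 and 1.18 relative to the WT mean). The part of either signal in the split was not tested. Without both mice the median changes were -0.46 between Fcgr2b-/- and WT, -0.42 between Sting gt/gt and WT and 0.19 between double-deficient and Fcgr2b-/- mice.

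**Figure D3:**
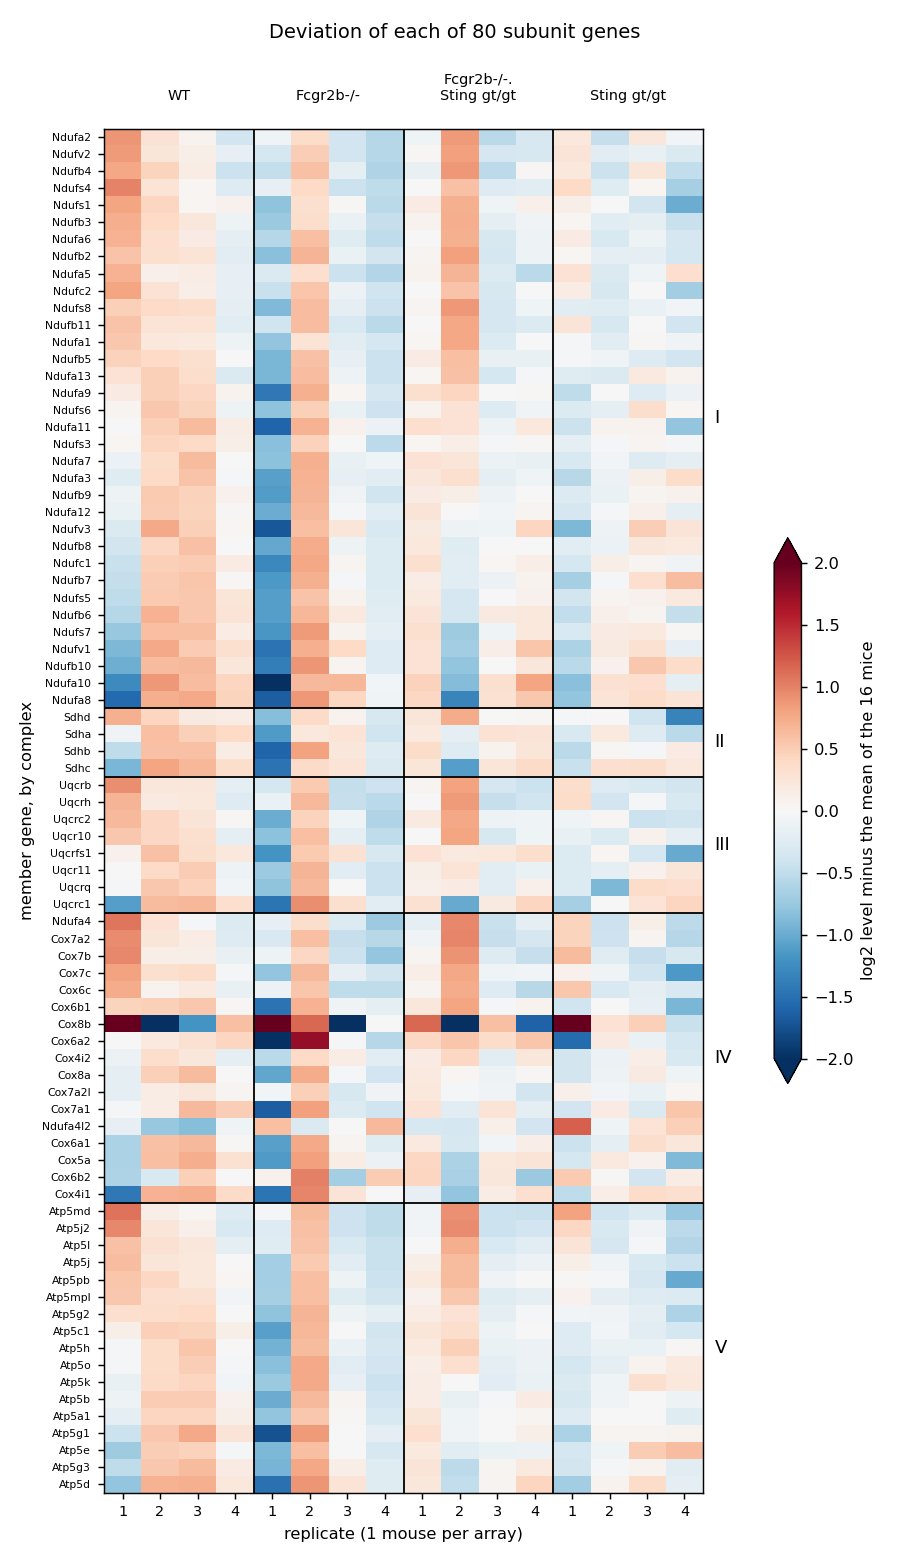
Log2 level of each of 80 of the 81 subunit genes (rows, by complex) minus its mean over the 16 mice, in each mouse (columns, by genotype and replicate; red above, blue below the mean). Fcgr2b-/- replicate 1 is over 0.5 below the mean in 60 genes and replicate 2 over 0.5 above it in 62, while WT replicate 1 and double-deficient replicate 2 hold genes on both sides.

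How alike the members ran was described by the correlation over the 16 mice, after the genotype means were removed, between a member and the mean of the others. Its median was 0.74, with 0.97 for *Atp5c1* and 0.95 for both *Ndufb9* and *Ndufs3*, and it was -0.64 for *Ndufa4l2* and -0.31 for *Cox8b*. Between pairs of members the median correlation was 0.73 within complex V, 0.65 within complex I, 0.66 within complex II, 0.55 within complex III and 0.29 within complex IV, and 0.69 between complexes I and V. The mice share arrays, scaling and tissue makeup, so these values are a description of the same 16 arrays.

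Other genes of mitochondrial metabolism, taken from lists by function and not by how they differed, ran beside the members. Of 48 measured assembly factors 47 were lower in Fcgr2b-/- than in WT mice (median -0.40) and 47 in Sting gt/gt than in WT mice (median -0.41). All 18 genes of the citric acid cycle and pyruvate dehydrogenase were lower in the first comparison (median -0.49) and 17 in the second (median -0.47), and of 30 genes of the mitochondrial ribosome 30 were lower in the first (median -0.33) and 29 in the second (median -0.43). Of 24 electron carriers, uncoupling proteins and mitochondrial antioxidants 21 were lower in each (median -0.37 in both). Of 16 glycolytic genes 12 were lower in each, with a median of -0.23 in both. The mice of a genotype differed in these lists. The mean log2 level of the ribosome genes against WT was -1.09, 0.29, -0.07 and -0.48 in Fcgr2b-/- replicates 1 to 4. In Sting gt/gt replicates 1 to 4 it was -0.50, -0.22, -0.11 and -0.83. The citric acid cycle list was at -1.44, 0.16, -0.04 and -0.58 in the Fcgr2b-/- mice. In the Sting gt/gt mice that list was at -0.57, -0.07, -0.48 and -0.90. Limma called 0 genes of these lists. At an unadjusted p under 0.05, the electron carrier *Etfa* alone of these genes passed in the first comparison, where 3.35% of all tested probes did. In the second, where 3.76% of the probes passed, there were 3 of 48 assembly factors (*Nubpl*, *Sdhaf2* and *Coa7*), 1 of 18 citric acid cycle and pyruvate dehydrogenase genes (*Pdha1*), 1 of 30 ribosome genes (*Mrpl3*) and 1 of 24 electron carriers and related genes (*Etfdh*), all lower, and the named genes were picked out by this p. The log2 change in the second comparison was -1.08 (SE 0.40) for *Coa7*, an assembly factor of complex IV, and -0.76 (SE 0.29) for *Mrpl3*, a protein of the large subunit of the ribosome.

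Regulators of these genes lay closer to 0. Of 23 measured, 21 were lower in Fcgr2b-/- than in WT mice (median -0.23) and 15 in Sting gt/gt than in WT mice (median -0.17), and limma called 0. *Ppargc1a*, the coactivator of mitochondrial biogenesis, was at 2.26 to 3.57 in WT, 2.16 to 2.80 in Fcgr2b-/-, 2.61 to 3.44 in double-deficient and 2.53 to 4.44 in Sting gt/gt mice, with log2 changes from WT of -0.46 in Fcgr2b-/- and 0.41 in Sting gt/gt mice (SE 0.38). *Tfam*, which packs mitochondrial DNA, was at 0.42 in Sting gt/gt replicate 4 and 1.53 in Fcgr2b-/- replicate 1, and at 2.01 to 2.68 in the other 14, with a change of -0.73 (SE 0.35, unadjusted p = 0.0517 in limma) in Sting gt/gt mice. In Fcgr2b-/- and Sting gt/gt mice the change from WT was -0.68 and -0.54 (SE 0.49) for *Cycs*, cytochrome c, and -0.28 and -0.24 (SE 0.32) for *Cs*, citrate synthase. *Ucp2*, an uncoupling protein homolog that leukocytes express, differed by 0.90 (SE 0.50) between Fcgr2b-/- and WT mice, and *Ucp1*, that of brown fat, by 1.42 (SE 1.81). None of these passed the threshold in limma.

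Markers of the cells that a kidney sample can hold also differed between the mice. The study states that the kidneys were not perfused, and that it could not tell whether its interferon signature came from blood or kidney. All 15 proximal tubule genes were lower in Fcgr2b-/- than in WT mice (median -0.42) and 14 of 15 in Sting gt/gt than in WT mice (median -0.30), and the mean log2 level of this list against WT was -1.90 in Fcgr2b-/- replicate 1, -0.82 in replicate 4 and -0.90 and -0.80 in Sting gt/gt replicates 1 and 4. In Fcgr2b-/- replicates 2 and 3 and double-deficient replicate 4 it was 0.12, 0.42 and 0.47. Over the groups it ran from -0.40 to 0.66 in WT, -1.90 to 0.42 in Fcgr2b-/-, -0.25 to 0.47 in double-deficient and -0.90 to 0.13 in Sting gt/gt mice. Thick limb, distal tubule and collecting duct genes were lower in 12 of 14 (median -0.33) and 9 of 14 (median -0.12). Leukocyte genes were higher in 13 of 17 between Fcgr2b-/- and WT mice (median 1.04, 7 at an unadjusted p under 0.05 where 3.35% of all tested probes passed, 0 called by limma) and in 13 of 17 between Sting gt/gt and WT mice (median 0.46, 0 at an unadjusted p under 0.05 where 3.76% of the probes passed). Of the 17, 14 were above background on all arrays, with *Cd8a* on 6. Their mean was 2.34 and 1.53 in Fcgr2b-/- replicates 1 and 4 and 0.10 and 0.25 in replicates 2 and 3, and it ran from -0.64 to 1.27 in WT, -0.04 to 1.18 in double-deficient and -0.13 to 0.95 in Sting gt/gt mice. Among them the change between Fcgr2b-/- and WT mice was 3.21 (SE 0.80) for *Lyz2* and 2.56 (SE 0.78) for *Adgre1*, both picked by the size of their change. In that comparison 4 of the 17 were lower. All 7 podocyte genes were higher than in WT in Fcgr2b-/- (median 0.81), double-deficient (median 0.45) and Sting gt/gt mice (median 0.36). Of 7 endothelial genes 5 were higher in Fcgr2b-/- (median 0.0933), 7 in double-deficient (median 0.31) and 7 in Sting gt/gt mice (median 0.91), and tubular injury genes were higher in 8 of 10 in Fcgr2b-/- mice (median 0.91) and in 5 of 10 in Sting gt/gt mice (median 0.10). The mean log2 level of the tubular injury list against WT was 1.88 and 1.90 in Fcgr2b-/- replicates 1 and 4. In replicates 2 and 3 it was 0.46 and -0.28. It ran from -0.29 to 0.29 in WT, -0.24 to 0.22 in double-deficient and -0.33 to 0.38 in Sting gt/gt mice. The part of the tissue makeup in the level of the members was not tested.

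The number of probes above background on an array also ran beside the members, and how far it reflects the array or the tissue was not tested. The 3 arrays with the fewest, Fcgr2b-/- replicate 2 with 28441, WT replicate 2 with 29811 and WT replicate 3 with 30008, were those with the 3 highest mean levels of the members, 0.42, 0.14 and 0.15. The array with the most, Fcgr2b-/- replicate 1 with 35564, had the lowest, at -1.07, although WT replicate 1, with 35506, was at -0.10. Its part in the results was not tested. The first of 2 slides held 3 Fcgr2b-/- mice and 1 double-deficient mouse, the second 1 and 3, and both held 2 WT and 2 Sting gt/gt mice. Within slides 1 and 2 the median change of the members was -0.40 and -0.28 between Sting gt/gt and WT mice, -0.47 and -0.29 between Fcgr2b-/- and WT mice, and 0.37 and 0.17 between double-deficient and Fcgr2b-/- mice. It was -0.05 and -0.18 between double-deficient and WT mice and 0.31 and 0.16 between double-deficient and Sting gt/gt mice.

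**Figure D4:**
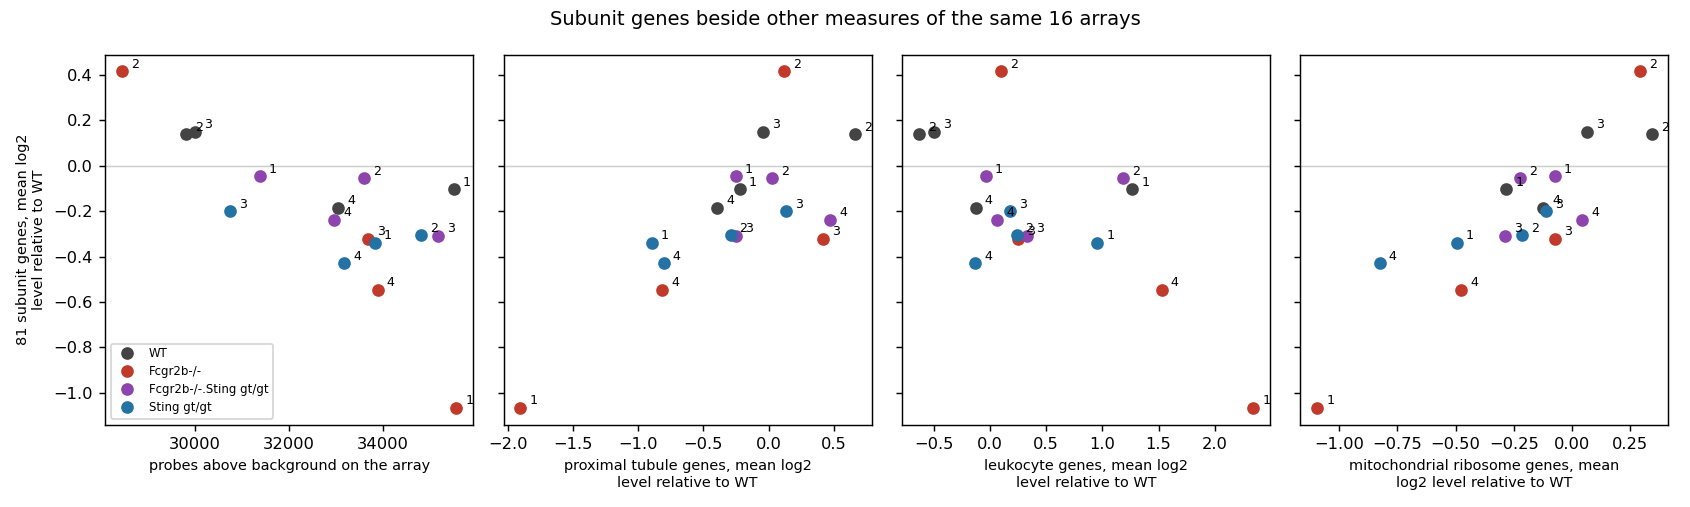
Mean log2 level of the 81 subunit genes relative to WT (vertical axes) beside 4 other measures of the same 16 arrays: probes above background, and the mean log2 level relative to WT of proximal tubule, leukocyte and mitochondrial ribosome genes (horizontal axes); points are mice, colored by genotype, with the replicate number. Fcgr2b-/- replicate 1, at -1.07, has the lowest proximal tubule (-1.90), the lowest mitochondrial ribosome (-1.09) and the highest leukocyte level (2.34) of the 16.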

How the data were processed

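RNA of whole kidneys was hybridised to Agilent single-color mouse arrays, with 100 ng of Cy3-labelled RNA per array. Per the file headers and the labels, the authors read the spots with Agilent Feature Extraction 11.0, and the deposited intensity values are processed signals, background-subtracted and not yet scaled to each other. A value table of the authors, in log2 and with one distribution for arrays sharing a replicate number, served as an alternative, and 0 per-sample columns were left unused. Genes were named from the accessions of the probes through the RefSeq table (assembly GRCm38.p6), and the array design is annotated on another build.

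The log2 processed signal minus the 75th percentile of each array was fitted by limma (version 3.58.1, with statmod 1.5.0, under R 4.3.3), all 16 arrays in one fit of 4 genotype means, over 35627 probes well above background on at least 4 arrays, with Benjamini-Hochberg adjustment over all of them. A call needed an adjusted p under 0.05 and a 2-fold change. The interaction is the change from Fcgr2b-/- to double-deficient mice minus the change from WT to Sting gt/gt mice. Summaries and plots used Python 3.11.15, pandas 2.3.3, numpy 2.4.6 and matplotlib 3.10.9, and the scripts were tested on simulated data. Each sample is labelled as a separate animal, and the number of mice, 4 per genotype, limits the precision. The first number of the animal label, whose meaning is not given, is shared by WT replicates 3 and 4, by Fcgr2b-/- replicate 3 and double-deficient replicate 4, and by Fcgr2b-/- replicate 4 and double-deficient replicate 3. As a random block it had a consensus correlation of 0.83 in limma. The members and lists were chosen with earlier results of these data known. Named members were the largest change of each complex in each comparison, up to 5 at an unadjusted p under 0.05 per comparison, the subunits of complex II and the isoform pairs of complex IV. The results of 1 named member and 1 marker are not reported here. Replicate numbers did not pair the mice. The deviations of arrays of the same number correlated at -0.60 to 0.69, on average at 0.01 against 0.00 for other numbers. Alternatives changed the background correction (normexp, offset 50), the scaling, the filter, the probe of a gene, the test, the samples, the slide and the blocks, and left out each array. The Y-linked covariate and the removal of pairs of arrays were chosen after seeing the data.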

Additional observations from a re-analysis of the deposited data

Results flagged for a closer look

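In 6 of 132 groups of 4 mice, for the level of a named member or a mean level over members, 1 mouse stood apart from the other 3, a share of 4.55%, where chance gives about 1 in 20. *Cox4i1* was at 6.24 in WT replicate 1 against 8.04 to 8.39 in the other WT mice. In double-deficient replicate 2, *Sdhc* was at 3.77 against 5.11 to 5.25. *Uqcrb* was higher in 1 mouse of each of 2 groups, at 7.67 in Fcgr2b-/- replicate 2 against 6.66 to 6.78, and at 7.50 in Sting gt/gt replicate 1 against 6.77 to 6.89. *Atp5g1* was at 6.96 in Sting gt/gt replicate 1 against 7.64 to 7.66. *Ndufa4l2* was at 0.0361 in double-deficient replicate 3 against -0.45 to -0.39.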

How the results depend on the processing

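In 0 of the 6 comparisons was a member called under any alternative, and the 6 medians over the members kept their direction. Over the 16 fits without 1 array they ran from 0.02 to 0.47 (double-deficient against Fcgr2b-/-), -0.68 to -0.17 (Fcgr2b-/- against WT), -0.23 to -0.10 (double-deficient against WT), -0.43 to -0.29 (Sting gt/gt against WT), 0.11 to 0.24 (double-deficient against Sting gt/gt) and 0.33 to 0.83 (interaction). Quantile normalization gave 0.13, -0.19, -0.04, -0.12, 0.07 and 0.26 in the same order, and 72, 6, 15, 19, 53 and 68 members above 0. Scaling by the median of each array shifted the median of all probes between Sting gt/gt and WT mice to -0.24 and between Fcgr2b-/- and WT mice to -0.21, and the members to -0.58 and -0.56. With the replicate block the medians were 0.21, -0.41, -0.18, -0.34, 0.15 and 0.57 and the block changed no call. With the animal label number as a random block they were 0.18, -0.35, -0.18, -0.35, 0.18 and 0.54. With Y-linked signal as a covariate, chosen after seeing the data, they were 0.18, -0.34, -0.17, -0.27, 0.11 and 0.47.

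Of 1033 values of single genes, 12 turned direction, and the cause was not tested. Between double-deficient and Fcgr2b-/- mice, *Atp5g1* was at -0.13 without Fcgr2b-/- replicate 1, with WT replicate 1 kept or left out (reported 0.36, and -0.13 to 0.74 over the fits without 1 array), and *Cox8b* at 0.12 with the slide and 0.42 with the animal label number as a block (reported -0.81). Between double-deficient and WT mice, *Atp5md* was at 0.0233 without WT replicate 1, with Fcgr2b-/- replicate 1 kept or left out (reported -0.26, and -0.57 to 0.0233), *Sdhc* at 0.0596 without double-deficient replicate 2 (reported -0.29, and -0.67 to 0.0596), and *Cox8b* at 0.23 with the animal label block, 0.83 without WT replicate 1, also with Fcgr2b-/- replicate 1 left out, 0.19 without double-deficient replicate 2 and 1.56 without both WT replicate 1 and double-deficient replicate 2 (reported -0.54, and -1.82 to 0.83). All members were above background on all 16 arrays, and the SD between mice of one genotype of their mean log2 level was 0.33. The interaction has no value from a fit of only the groups compared or from the Mann-Whitney test.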
